A study of Homo sapiens with 18 samples.

Results

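The genes described here encode the mitotic kinases of the Aurora and Polo families, 2 further mitotic kinases and the partners that place the Aurora kinases on the spindle and on chromosomes. The 10 genes were AURKA, TPX2, AURKB, INCENP, BIRC5, CDCA8, PLK1, PLK4, NEK2 and MASTL. They were taken by symbol from the 20705 genes of the count table, whatever their values, and all 10 were found and tested. Poly-A RNA had been sequenced from CHL1 and A375, 2 established human melanoma cell lines, in 18 libraries that form 9 groups of 2 replicates. CHL1 carries mutant p53 with BRAF and NRAS of wild type and was grown in DMEM, whereas A375 carries mutant BRAF with wild-type p53 and was grown in RPMI-1640. The labels give the genotype of every sample as WT. Controls received DMSO, the solvent of both drugs. CDK4/6i cells received 1 µM palbociclib, which blocks the cyclin-dependent kinases CDK4 and CDK6, for 72 hours or 6 days. PRMT5i cells received 500 nM GSK3326595, which blocks the arginine methyltransferase PRMT5, for 72 hours. The names of the A375 PRMT5i libraries carry the letters CTX, which the labels do not explain, so that the compound in A375 rests on the treatment field and protocol alone. A375 had a control at 72 hours and another at 6 days, while the only CHL1 control was taken at 72 hours and served the 6-day CHL1 samples too. Each model was 1 cell line, and the labels do not say whether replicates were separate cultures, so the p-values measure only the spread between these libraries.

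Entry into mitosis and the separation of chromosomes are driven by a small set of kinases. AURKA matures centrosomes and builds the spindle, and TPX2 both activates it and holds it on spindle microtubules. AURKB is the enzyme of the chromosomal passenger complex, in which INCENP is the scaffold while BIRC5 (survivin) and CDCA8 (borealin) bring the complex to centromeres, where it corrects faulty attachments of chromosomes. PLK1 acts from mitotic entry to cytokinesis, PLK4 starts the duplication of centrioles, NEK2 separates centrosomes, and MASTL (Greatwall kinase) keeps the phosphatase PP2A-B55 inactive during mitosis. The mRNAs of most of these genes are made late in the cell cycle, in G2 and M phase. CDK4 and CDK6 act much earlier, where they free E2F from the retinoblastoma protein and let cells enter S phase. The comparisons therefore ask how genes of the last phase of the cycle stood when its first step, or PRMT5, was blocked.

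The genes lie on 7 chromosomes (GRCh37), all are annotated as protein coding, and the counts cover their exons, untranslated regions included. AURKA lies at chr20:54944445-54967393 (minus strand) and TPX2 at chr20:30327074-30389608. The passenger complex is encoded by AURKB at chr17:8108051-8113918 (minus strand), INCENP at chr11:61891470-61920641, BIRC5 at chr17:76210267-76221717 and CDCA8 at chr1:38158153-38175391. PLK1 lies at chr16:23688977-23701688, PLK4 at chr4:128802048-128820379, NEK2 at chr1:211831999-211848972 (minus strand) and MASTL at chr10:27443753-27476882. On the opposite strand PLK1 overlaps exons of the lncRNA ENSG00000261266 by 553 bases and of ERN2 by 58 bases. MASTL overlaps those of YME1L1 by 443 bases and of ACBD5 by 327 bases, and since strandedness is not stated, such reads cannot be told apart. AURKA has processed pseudogenes, with which the counting could have split its reads.

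Promoters of genes that peak in G2 and M phase are known for 2 short sequences, the cell cycle homology region (TTTGAA), read by the MuvB core that FOXM1 and MYBL2 also use, and the CCAAT box, read by NF-Y. Windows from 250 bases before to 50 bases after the transcription start were at hand for 7 of the 10 genes (RefSeq, GRCh38.p14), and AURKA, TPX2 and BIRC5 were not among them. Both strands were searched. The 7 genes had 10 windows, as some genes have several starts. The homology region was found in 5 of the 10 windows (PLK1, CDCA8, INCENP, MASTL and PLK4), against 15.2% of 35116 windows of all genes. The CCAAT box was found in 7 of the 10 windows, of all the genes but MASTL, against 34.6%. The 2 AURKB windows overlap and share the same box, which is counted in both. The E2F sequences TTTCCCGC, TTTGGCGC, TTTCGCGC and TTTCCCGG were found in 0 of the 10, against 4.17% of all windows. The stretches below run from 130 bases before to 20 bases from the start, 5′ to 3′ on the strand of the gene, and are shown for the 5 genes with a homology region at the start or 2 CCAAT boxes before it. Capitals mark both kinds of match, the CCAAT box as ATTGG where it reads on the other strand.
PLK1 (chr16:23678759-23678908, plus strand): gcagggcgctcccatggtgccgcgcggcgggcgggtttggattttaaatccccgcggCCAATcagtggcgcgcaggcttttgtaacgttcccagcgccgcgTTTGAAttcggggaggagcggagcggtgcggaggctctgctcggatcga
CDCA8 (chr1:37692386-37692535, plus strand): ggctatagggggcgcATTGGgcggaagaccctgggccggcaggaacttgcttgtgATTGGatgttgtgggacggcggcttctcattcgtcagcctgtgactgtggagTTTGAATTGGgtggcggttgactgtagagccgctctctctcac
INCENP (chr11:62123881-62124030, plus strand): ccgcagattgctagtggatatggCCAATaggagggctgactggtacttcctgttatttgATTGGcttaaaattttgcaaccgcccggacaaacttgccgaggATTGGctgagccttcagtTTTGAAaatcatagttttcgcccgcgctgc
MASTL (chr10:27155222-27155371, plus strand): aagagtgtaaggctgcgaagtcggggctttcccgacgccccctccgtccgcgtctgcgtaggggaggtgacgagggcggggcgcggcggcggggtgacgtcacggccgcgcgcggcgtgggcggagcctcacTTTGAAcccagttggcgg
NEK2 (chr1:211675602-211675751, minus strand): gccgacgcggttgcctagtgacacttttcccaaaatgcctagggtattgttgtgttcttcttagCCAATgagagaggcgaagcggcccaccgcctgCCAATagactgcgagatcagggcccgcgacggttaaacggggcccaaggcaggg

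In PLK1, TTTGAA began 29 bases before the start and CCAAT 73 bases before it. CDCA8 held TTTGAA 23 bases before the start, where it runs into a reversed CCAAT box (TTTGAATTGG), and 2 more reversed CCAAT boxes lay further away. INCENP held TTTGAA 10 bases before the start with 3 CCAAT boxes on either strand behind it. MASTL held TTTGAA just after the start and no CCAAT, and NEK2 held 2 CCAAT boxes and no TTTGAA in the window. These are matches of letters, and binding was not measured.

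Libraries held 20509245 to 37424081 counts in CHL1 and 16213475 to 36036772 in A375. BIRC5 was the least counted gene of the 10, with 59 to 250 counts a library, and TPX2 the most, with 2377 to 11613. Values of BIRC5 thus carry the largest counting error, and whether the counting missed some of its reads was not tested. MITF, a defining gene of the melanocyte lineage, was present in every library (63.8 to 144 CPM in CHL1 and 81.3 to 211 CPM in A375). Of the pigment enzymes, TYR was at most 0.0717 CPM in CHL1 and 5.02 CPM in A375, and DCT stood at 36.3 to 142 CPM in CHL1 and at most 1.79 CPM in A375. The 6 melanocyte genes of the table summed to 155 to 285 CPM in CHL1 and 113 to 263 CPM in A375. CPM, the usual unit of level, is a count scaled to the size of its library, here with TMM factors between libraries. Of the lists for other cell types, keratinocyte genes summed to 1.53 to 10.8 CPM in A375 and 0.036 to 0.477 CPM in CHL1, fibroblast genes to 2.76 to 25.3 CPM and 0.201 to 1.72 CPM, and the endothelial gene VWF reached 2.81 CPM and 0.763 CPM. The leukocyte gene PTPRC stood at 7.41 to 16.8 CPM in CHL1 and at most 0.588 CPM in A375. 4 libraries stood apart in how counts depended on the GC content of transcripts. The log2 difference between the 10% of genes richest and the 10% poorest in GC, taken as deviation within a line, was -2.32 and -1.88 with PRMT5i in CHL1. It was -2.18 and -1.09 in the 6-day controls of A375, against -0.33 to 0.56 in all others. The 10 genes span 38.1% GC (PLK4) to 58.8% GC (INCENP), so the main results that rest on those 4 libraries are also given with a GC correction, a smooth curve of each library's deviation on GC content entered in the fit for 13675 genes. Shares of all genes given with the correction are shares of these 13675 genes. The 6 A375 libraries of 72 hours carry names of another pattern than the remaining ones, which share 1 series name, so cell line and library set cannot be told apart at 72 hours.

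All 10 genes were expressed in the untreated cells, and 3 of them differed between the lines. Per kilobase of exon, TPX2 led in the CHL1 control at 92.8 CPM, followed by AURKA at 63.1, INCENP at 36.6 and CDCA8 at 27.8, and BIRC5 was lowest at 2.27. The A375 control at 72 hours gave the same 4 leading genes, with TPX2 at 78.3, AURKA at 43.3, INCENP at 36.4 and CDCA8 at 34.3 CPM per kilobase, and BIRC5 at 1.56. Between the lines, AURKA was higher in CHL1, at 192 and 177 CPM against 116 and 138 CPM in A375 (log2 fold change 0.54, SE 0.16, adjusted p = 0.00831). NEK2 was lower in CHL1, at 30.5 and 25.5 CPM against 49.9 and 65.3 CPM (log2 fold change -1.04, SE 0.18, adjusted p = 8.3e-05), and so was AURKB, at 50.7 and 42.7 CPM against 66.8 and 77.1 CPM (log2 fold change -0.62, SE 0.22, adjusted p = 0.0196). In all 3 genes the libraries of the lines did not overlap. The other 7 did not pass, among them INCENP (177 and 149 against 151 and 173 CPM) and MASTL (51.7 and 44.7 against 42.4 and 50.3 CPM). A gene called different (a DEG) had an adjusted p below 0.05 in edgeR's quasi-likelihood test with Benjamini-Hochberg adjustment over all 20705 genes, and 58.9% of all genes were DEGs between these controls (29.3% higher and 29.6% lower in CHL1), so 3 of 10 lies below that share. AURKA lost the call without CHL1 control replicate 1 (0.51) or A375 control replicate 1 (0.39), and AURKB lost it without CHL1 control replicate 2 (-0.48) or A375 control replicate 2 (-0.49). Medium and library set differ with the line and cannot be told apart from it.

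**Figure D1:**
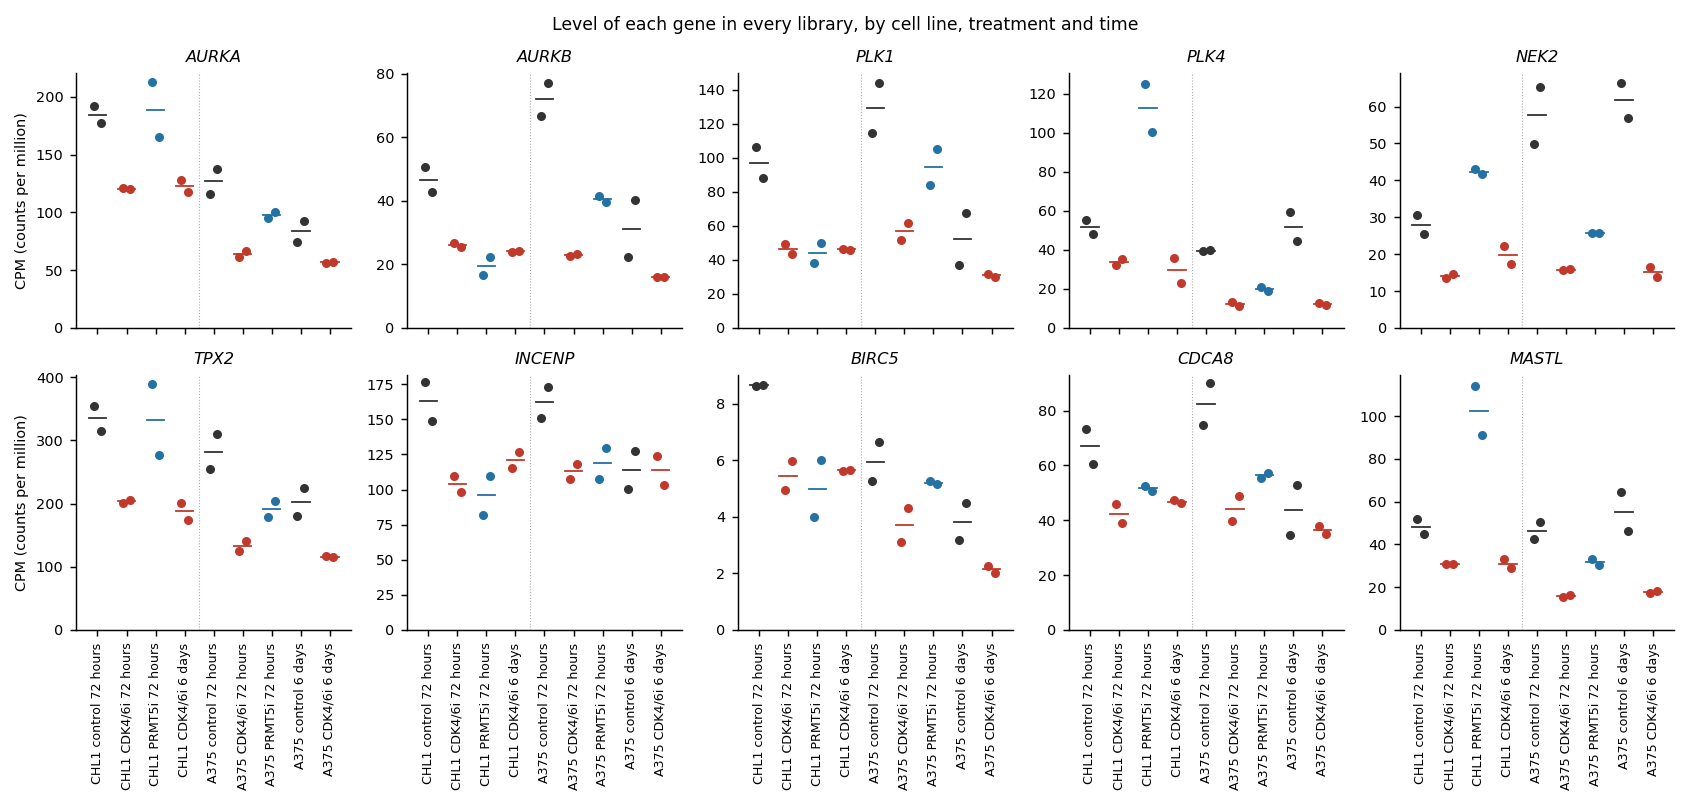
Levels of the 10 genes in every library, one panel a gene, as CPM on the vertical axis against the 9 groups (dots are libraries, short lines the mean of 2 libraries, black control, red CDK4/6i, blue PRMT5i, and a dotted line divides CHL1 from A375). In both lines the red dots lie below the 72-hour black ones in all 10 panels, while the CHL1 blue dots lie above the controls for PLK4, NEK2 and MASTL and below them for AURKB, PLK1, INCENP, BIRC5 and CDCA8.

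With CDK4/6i for 72 hours, all 10 genes stood lower in CHL1 than in the control. They lay below both controls in both treated libraries, an arrangement seen in 27.9% of all genes, and their median log2 fold change was -0.66 where the median over all genes was 0. AURKB, PLK1, NEK2, TPX2 and CDCA8 were down-regulated DEGs (5 of 10, against 2.72% of all genes down and 4.98% in either direction), and the other 5 had log2 fold changes of -0.67 to -0.61 that missed the threshold. In bulk RNA, fewer cells in G2 and M phase and less RNA of a gene per cell cannot be told apart.

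Of the Polo kinases, PLK1 fell the most of the 10. It stood at 106 and 88 CPM in the controls and at 49.2 and 43.4 CPM with CDK4/6i, so that the fitted level was 47.6% of the control (log2 fold change -1.07, SE 0.18, adjusted p = 0.00756). PLK4 stood at 55.2 and 47.9 CPM in the controls and 32.2 and 35.4 CPM with CDK4/6i, without overlap (log2 fold change -0.61, SE 0.21, adjusted p = 0.123). Among the passenger genes, AURKB went from 50.7 and 42.7 to 26.8 and 25.6 CPM (log2 fold change -0.83, SE 0.18, adjusted p = 0.0261). Its 2 treated libraries were closer to each other than the controls were. CDCA8 stood at 73.3 and 60.4 CPM in the controls and at 45.8 and 39 CPM after treatment (log2 fold change -0.66, SE 0.16, adjusted p = 0.041). The scaffold INCENP, at 177 and 149 CPM against 109.9 and 98.1 CPM, lay lower in both treated libraries and missed the threshold (log2 fold change -0.65, SE 0.18, adjusted p = 0.0567). BIRC5 stood at 8.63 and 8.69 CPM against 4.96 and 5.97 CPM, again without overlap (log2 fold change -0.67, SE 0.23, adjusted p = 0.125).

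The Aurora A activator TPX2 was measured at 355 and 314 CPM in the controls and at 201 and 206 CPM with CDK4/6i, a clear gap between the pairs (log2 fold change -0.72, SE 0.18, adjusted p = 0.0443). AURKA itself stood at 192 and 177 CPM against 121 and 120.1 CPM, and its adjusted p lay just over the threshold (log2 fold change -0.62, SE 0.16, adjusted p = 0.0505). NEK2, at 30.5 and 25.5 CPM, stood at 13.6 and 14.7 CPM after treatment, which is 50.4% of the control level (log2 fold change -0.99, SE 0.19, adjusted p = 0.0139). MASTL stood at 51.7 and 44.7 CPM and at 30.7 and 30.9 CPM, below both controls and short of the threshold (log2 fold change -0.65, SE 0.17, adjusted p = 0.0521). All 5 calls were lost with any 1 of the 4 libraries left out, while all 10 log2 fold changes stayed below 0. Such a fit leaves 1 library in a group, which is taken to vary like the other groups. The values stayed close, with PLK1 at -1.20 to -0.93, NEK2 at -1.11 to -0.86, AURKB at -0.95 to -0.71, TPX2 at -0.80 to -0.63 and CDCA8 at -0.79 to -0.52. The count of down-regulated genes rose from 5 to 8 with DESeq2 (5.56% of 15962 genes with an adjusted p). It rose to 9 without the CHL1 PRMT5i libraries in the fit (5.22% of all genes) and to 10 with the GC correction (7.52% of 13675 genes).

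After 6 days of CDK4/6i the same 10 genes still lay below the 72-hour controls of CHL1 in both libraries (29.5% of all genes did so), with a median log2 fold change of -0.61 against 0.03 over all genes. PLK1, AURKB, TPX2, PLK4, MASTL and AURKA were down-regulated DEGs (6 of 10, against 7.8% of all genes down and 16.6% in either direction). PLK1 stood at 46.4 and 45.8 CPM (log2 fold change -1.06, SE 0.18, adjusted p = 0.00313) and AURKB at 24 and 24.3 CPM (log2 fold change -0.94, SE 0.18, adjusted p = 0.00613), both close to their 72-hour levels. PLK4 varied more, with 35.6 and 23.2 CPM in its 2 libraries (log2 fold change -0.79, SE 0.21, adjusted p = 0.0261). TPX2 stood at 200.4 and 174 CPM (log2 fold change -0.82, SE 0.18, adjusted p = 0.0109), AURKA at 128 and 118 CPM (log2 fold change -0.57, SE 0.16, adjusted p = 0.032) and MASTL at 33 and 29 CPM (log2 fold change -0.62, SE 0.17, adjusted p = 0.0295). NEK2, at 22.2 and 17.2 CPM, lay between its control and its 72-hour level and did not pass (log2 fold change -0.49, SE 0.18, adjusted p = 0.0914). INCENP (115 and 126 CPM), BIRC5 (5.64 and 5.68 CPM) and CDCA8 (47.3 and 46.3 CPM) did not pass either, with log2 fold changes of -0.42, -0.60 and -0.50. Between the 2 times of treatment edgeR called 0 of the 10 genes and 3 of all genes (0.0145%). Of the 10, 1 had an unadjusted p under 0.05, NEK2 (0.50, adjusted p = 0.526), as did 1634 of all 20705 genes, and DESeq2 called 0 of the 10. The 6-day count fell to 1 without control replicate 1, with PLK1 left, and to 2 without control replicate 2 or without 6-day replicate 2. It rose to 9 with the GC correction (15.4% of all genes), BIRC5 being the exception.

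In A375 with CDK4/6i for 72 hours, 8 of the 10 genes were down-regulated DEGs, against 7.11% of all genes down and 13.3% in either direction. The median log2 fold change was -1.19, and all 10 genes lay below both controls in both treated libraries, as did 29.2% of all genes. The largest falls were in NEK2, PLK4, AURKB and MASTL, and the 2 genes that did not pass were INCENP and BIRC5.

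NEK2 stood at 49.9 and 65.3 CPM in the A375 controls and 15.6 and 15.9 CPM with CDK4/6i, 26.3% of its control level (log2 fold change -1.93, SE 0.20, adjusted p = 2.57e-05). PLK4 went from 39.2 and 39.9 to 13.5 and 11.3 CPM, below both controls (log2 fold change -1.73, SE 0.20, adjusted p = 5.3e-05). MASTL stood at 42.4 and 50.3 CPM in the controls and 15.6 and 16.4 CPM after treatment (log2 fold change -1.59, SE 0.20, adjusted p = 9.04e-05). In all 3 genes the gap between the pairs was wider than the spread within either. PLK1 stood at 114 and 144 CPM against 51.9 and 61.6 CPM, with a wide control pair and no overlap (log2 fold change -1.24, SE 0.25, adjusted p = 0.00379).

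In the passenger complex the kinase had the largest log2 fold change. AURKB stood at 66.8 and 77.1 CPM in the controls and 22.5 and 23.4 CPM with CDK4/6i (log2 fold change -1.71, SE 0.24, adjusted p = 0.000268). CDCA8 stood at 74.8 and 90.1 CPM against 39.8 and 48.7 CPM (log2 fold change -0.96, SE 0.21, adjusted p = 0.00778). INCENP, at 151 and 173 CPM against 107 and 119 CPM, kept most of its level and missed the threshold (log2 fold change -0.58, SE 0.19, adjusted p = 0.0597), and BIRC5 stood at 5.26 and 6.65 CPM against 3.12 and 4.3 CPM (log2 fold change -0.74, SE 0.29, adjusted p = 0.106). The count ratio of AURKB to INCENP was 0.443 and 0.445 in the A375 controls and 0.21 and 0.198 with CDK4/6i. In CHL1 it was 0.287 and 0.286 in the controls and 0.244 and 0.261 with CDK4/6i at 72 hours, a smaller shift. The ratio is given as a description, and its difference was not tested.

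Of the Aurora A pair, AURKA stood at 116 and 138 CPM and 61.8 and 66.6 CPM (log2 fold change -1.04, SE 0.18, adjusted p = 0.00138), and TPX2 at 254 and 311 CPM and 126 and 141 CPM (log2 fold change -1.14, SE 0.19, adjusted p = 0.00105). The 2 genes thus fell by similar amounts, and their count ratio stayed between 0.414 and 0.675 in all 18 libraries. PLK1 and CDCA8 lost their calls without control replicate 2 (-1.05 and -0.79) or without CDK4/6i replicate 1 (-1.13 and -0.82). All 10 genes were down-regulated with the GC correction (13.5% of all genes were), and likewise with only the 72-hour libraries in the fit, without (16.3%) or with a replicate block (21.7%).

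At 6 days A375 had its own control, and 8 of the 10 genes were down-regulated DEGs against it, where 21.3% of all genes were down and 43.1% changed in either direction. PLK4 went from 59.1 and 44.4 CPM to 12.9 and 11.9 CPM (log2 fold change -2.06, SE 0.20, adjusted p = 5.04e-06) and NEK2 from 66.4 and 57 to 16.5 and 13.9 CPM (log2 fold change -2.02, SE 0.19, adjusted p = 5.04e-06). MASTL stood at 64.2 and 46.3 CPM in the controls and 17.1 and 18.1 CPM with CDK4/6i (log2 fold change -1.65, SE 0.19, adjusted p = 2.32e-05). In these 3 genes the gap between the pairs was wider than the spread within either. For other members the 2 controls themselves lay far apart, as in AURKB, with 22.2 and 40.4 CPM in the controls against 15.9 and 16 CPM after treatment (log2 fold change -0.98, SE 0.24, adjusted p = 0.004). PLK1 showed the same, with 37.1 and 67.8 CPM against 31.7 and 30.1 CPM (log2 fold change -0.77, SE 0.25, adjusted p = 0.0195). TPX2 stood at 180.3 and 224 CPM against 117 and 116 CPM (log2 fold change -0.81, SE 0.19, adjusted p = 0.00323) and AURKA at 74.7 and 92.9 CPM against 56.4 and 57.3 CPM (log2 fold change -0.57, SE 0.18, adjusted p = 0.0182), both without overlap. BIRC5 stood at 3.19 and 4.48 CPM against 2.27 and 2.03 CPM (log2 fold change -0.84, SE 0.29, adjusted p = 0.028).

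In 8 of the genes both treated libraries lay below both controls (30.5% of all genes did so), and INCENP and CDCA8 overlapped. INCENP stood at 100.1 and 128 CPM in the 6-day controls and 124 and 103 CPM with CDK4/6i (log2 fold change -0.01, SE 0.19, adjusted p = 0.979), and CDCA8 at 34.6 and 52.7 CPM and 37.8 and 34.8 CPM (log2 fold change -0.27, SE 0.21, adjusted p = 0.314). The 6-day controls carry the GC tilt described above, and among the 10 genes the log2 fold change had a Spearman correlation with GC content of 0.685, against 0.59 over 13675 genes that share these libraries. After the GC correction both genes were down-regulated (-0.54 for INCENP and -0.60 for CDCA8), and all 10 were, against 22.3% of all genes. PLK4 (-1.40), NEK2 (-1.71) and MASTL (-1.28) then fell by less than before the correction. AURKB (-1.43), PLK1 (-1.24), BIRC5 (-1.22), TPX2 (-0.90) and AURKA (-0.64) fell by more, so that NEK2 led and AURKB came next. Against the 72-hour control instead, all 10 genes were also down-regulated (15% of all genes were). That comparison crosses library sets. The untreated 6-day controls themselves lay below the 72-hour controls in 7 of the 10 genes (36.8% of all genes) and above them in 1 (36.4%). Control replicate 2 carries weight here: without it PLK1 was at -0.24 and BIRC5 at -0.54, neither past the threshold, and INCENP and CDCA8 were above 0. Without control replicate 1, CDCA8 passed at -0.57. Without either CDK4/6i library, AURKA, PLK1 and BIRC5 missed the threshold at -0.57 to -0.56, -0.82 to -0.73 and -0.93 to -0.75.

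The response of A375 at 6 days minus that at 72 hours was called in 0 of the 10 genes by edgeR and by DESeq2 (224 genes or 1.08% of all by edgeR). AURKB (0.72) and CDCA8 (0.68) had unadjusted p-values under 0.05 with adjusted p of 0.243 and 0.224. Of all 20705 genes, 4118 had an unadjusted p under 0.05. Without the 6-day control replicate 2, the control with the stronger GC tilt (-2.18) was left. The differences were then 0.67 for AURKA, 1.26 for AURKB, 1.01 for PLK1, 0.79 for INCENP and 1.05 for CDCA8. AURKA, AURKB and PLK1 thus fell less at 6 days, while INCENP and CDCA8 lay above 0 there. With the GC correction and all libraries edgeR called 0 of the 10, and their median difference was 0.13 instead of 0.40.

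**Figure D2:**
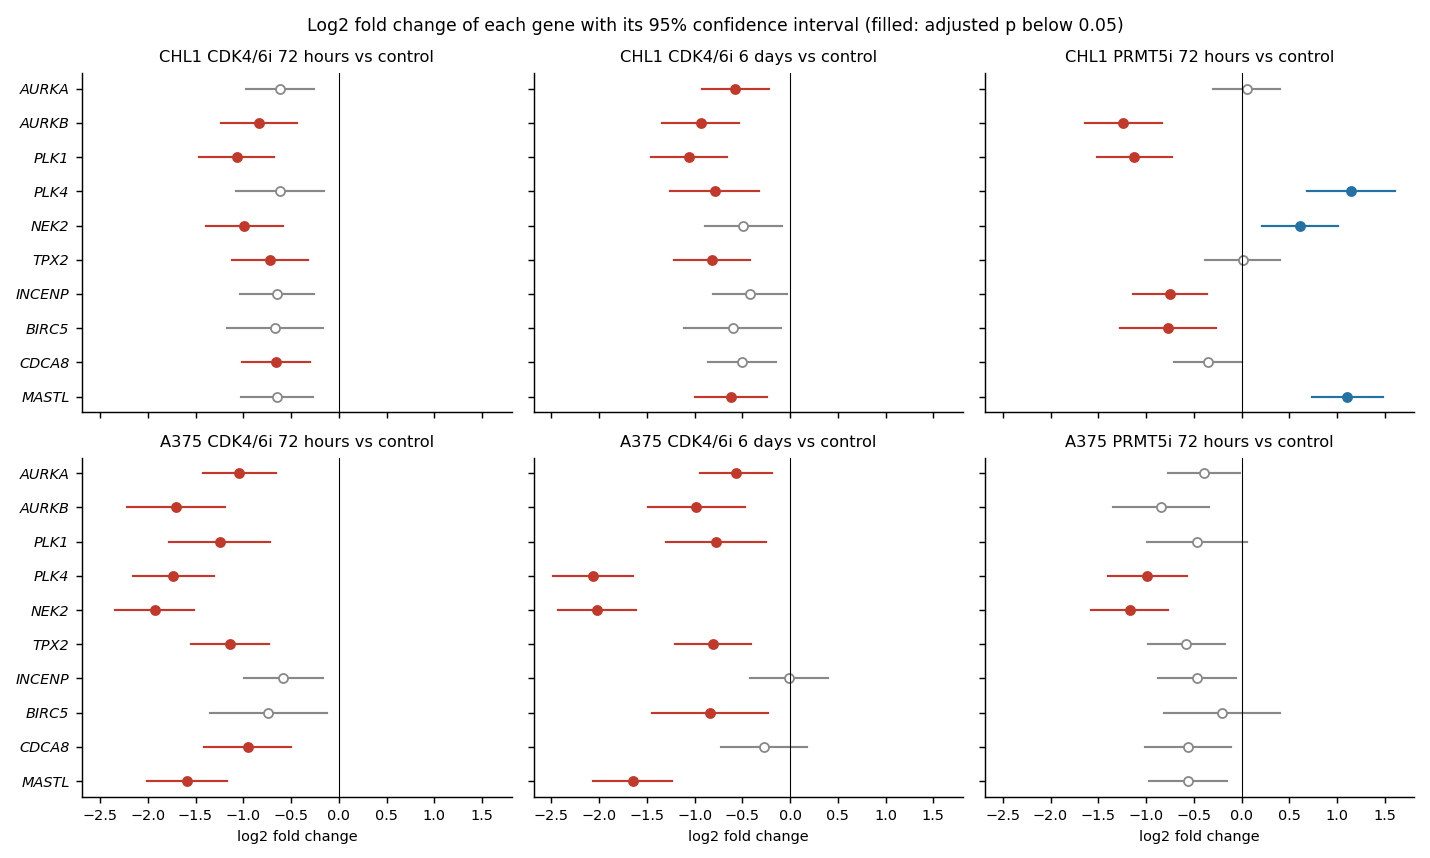
Log2 fold changes of the 10 genes in the 6 comparisons with control, with bars for 95% confidence intervals (filled red, down-regulated DEG; filled blue, up-regulated DEG; open grey, not called; 2 libraries a group). Under CDK4/6i every gene lies below 0, from -0.01 for INCENP in A375 at 6 days to -2.06 for PLK4 there, while under PRMT5i in CHL1 the genes spread from -1.24 (AURKB) to 1.14 (PLK4).

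PRMT5i split the group in CHL1. PLK4, MASTL and NEK2 were up-regulated, AURKB, PLK1, BIRC5 and INCENP were down-regulated, AURKA and TPX2 overlapped their controls, and CDCA8 missed the threshold. These 7 DEGs of 10 compare with 54% of all genes (26.4% up and 27.6% down), so the share of DEGs among the 10 is not far from that of all genes. Both libraries lay above both controls in 3 of the genes (36.2% of all genes) and below them in 5 (39.6%).

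PLK4, the starter of centriole duplication, stood at 55.2 and 47.9 CPM in the controls and at 125 and 100.3 CPM with PRMT5i, higher in both libraries (log2 fold change 1.14, SE 0.21, adjusted p = 0.000776). MASTL was measured at 51.7 and 44.7 CPM and at 114 and 90.9 CPM (log2 fold change 1.11, SE 0.17, adjusted p = 0.000295), more than 2-fold higher on average. NEK2 stood at 30.5 and 25.5 CPM and 43 and 41.6 CPM (log2 fold change 0.61, SE 0.18, adjusted p = 0.013). The kinase of the passenger complex moved the other way, with AURKB at 50.7 and 42.7 CPM in the controls and 16.7 and 22.4 CPM with PRMT5i (log2 fold change -1.24, SE 0.18, adjusted p = 0.000247). PLK1, the other Polo kinase, stood at 106 and 88 CPM against 38 and 50.04 CPM (log2 fold change -1.12, SE 0.18, adjusted p = 0.000359). Before the GC correction the 2 Polo kinases thus moved in opposite directions. The uncorrected count ratio of PLK1 to PLK4 was 1.92 and 1.84 in the controls and 0.305 and 0.499 with PRMT5i. With the correction, given below, neither gene passed. INCENP stood at 82 and 109.7 CPM against 177 and 149 CPM (log2 fold change -0.75, SE 0.18, adjusted p = 0.00363), BIRC5 at 3.99 and 6.02 CPM against 8.63 and 8.69 CPM (log2 fold change -0.77, SE 0.23, adjusted p = 0.0139) and CDCA8 at 52.6 and 50.5 CPM against 73.3 and 60.4 CPM (log2 fold change -0.36, SE 0.16, adjusted p = 0.085). AURKA stood at 213 and 165 CPM (log2 fold change 0.05, SE 0.16, adjusted p = 0.829) and TPX2 at 389 and 276 CPM (log2 fold change 0.01, SE 0.18, adjusted p = 1), and in both genes the PRMT5i libraries lay on either side of the controls.

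The order of these changes largely followed GC content. PLK4 (38.1% GC), MASTL (41.2%) and NEK2 (41.8%) rose, AURKA (46.6%) and TPX2 (46.8%) stayed near 0, and CDCA8 (51.2%), BIRC5 (52.2%), AURKB (55.6%), PLK1 (57.1%) and INCENP (58.8%) lay below 0. The Spearman correlation of log2 fold change with GC content was -0.915 over the 10 genes and -0.817 over 13675 genes, all from the same 4 libraries. After the GC correction AURKB stayed down-regulated (-0.51, adjusted p = 0.00904) and MASTL up-regulated (0.50, adjusted p = 0.0133), and the other 8 did not pass, where 21.4% of genes were still down-regulated and 17.5% up-regulated. PLK4 then had a log2 fold change of 0.24, NEK2 of 0.06, PLK1 of -0.30, BIRC5 of -0.31 and INCENP of 0.16, the last with its sign changed. The correction left part of the trend: from the lowest to the highest 5% of genes by GC content, the median log2 fold change ran from 1.31 to -1.41 before it and from 0.15 to -0.32 after it. The part of this tilt in the split was not tested beyond these values. BIRC5 lost its call without control replicate 1 (-0.78), control replicate 2 (-0.77) or PRMT5i replicate 1 (-0.5), and NEK2 lost its call without control replicate 2 (0.49).

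**Figure D3:**
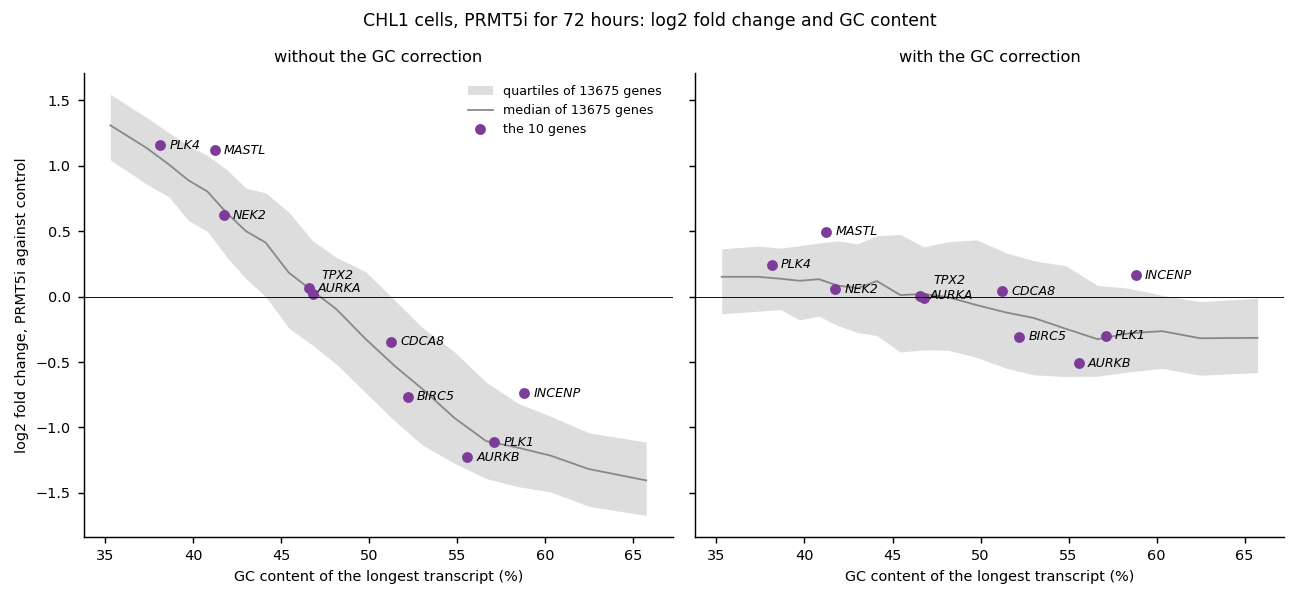
Log2 fold change against GC content of the longest transcript (percent) in CHL1 with PRMT5i against control, before (left) and after (right) the GC correction. Points are the 10 genes. The line gives the medians of 20 bins of the 13675 genes used for the correction, and the grey band the quartiles. The uncorrected line falls from 1.31 to -1.41 and the 10 genes lie along it, and after correction it runs from 0.15 to -0.32 with most of the genes near 0.

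The group did not split this way in A375 with PRMT5i. All 10 log2 fold changes were below 0 with a median of -0.56, and 9 of the 10 genes lay below both controls (26.2% of all genes did). NEK2 and PLK4 were down-regulated DEGs, against 1.74% of all genes down and 2.61% in either direction. NEK2 stood at 49.9 and 65.3 CPM in the controls and 25.7 and 25.8 CPM with PRMT5i, close to equal in its treated pair (log2 fold change -1.17, SE 0.19, adjusted p = 0.006). PLK4 stood at 39.2 and 39.9 CPM and 21.2 and 19.1 CPM (log2 fold change -0.99, SE 0.20, adjusted p = 0.015). AURKB, at 66.8 and 77.1 CPM against 41.4 and 39.5 CPM, was lower in both libraries and came next (log2 fold change -0.84, SE 0.24, adjusted p = 0.0714). The remaining genes had smaller differences. MASTL stood at 33.2 and 30.2 CPM against 42.4 and 50.3 CPM in the controls (log2 fold change -0.56, SE 0.19, adjusted p = 0.144), TPX2 at 178 and 203 against 254 and 311 CPM (log2 fold change -0.58, SE 0.19, adjusted p = 0.126) and CDCA8 at 55.4 and 57.4 against 74.8 and 90.1 CPM (log2 fold change -0.56, SE 0.21, adjusted p = 0.191). INCENP (108 and 129.7 CPM), PLK1 (83.8 and 105 CPM) and AURKA (94.8 and 100.1 CPM) also lay below both controls with log2 fold changes of -0.46, -0.47 and -0.39. BIRC5 alone overlapped its controls, at 5.26 and 5.16 CPM against 5.26 and 6.65 CPM (log2 fold change -0.20, SE 0.29, adjusted p = 0.792).

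The number of these genes called in A375 with PRMT5i depended on the fit. Replicates of equal number deviated together in the A375 libraries of 72 hours (r of 0.229 to 0.527 between groups over all genes), though the labels do not say what the number stands for. With the replicate number as a block in the 6 libraries of 72 hours, 9 of the 10 were down-regulated, all but BIRC5 (15.4% of all genes were). The count was 7 with the GC correction (6.08% of all genes), with AURKB (-0.89), TPX2, INCENP, CDCA8 and MASTL added, and 9 with only the 72-hour libraries in the fit (9.13%), a setting chosen after seeing the data. PLK4 lost its call with any 1 of the 4 libraries left out, and NEK2 lost its call without control replicate 2 or either PRMT5i library. All 10 values stayed below 0 in each of these fits. PLK4 had log2 fold changes of -1.07 to -0.91 without 1 of the 4 libraries, and NEK2 of -1.18 without PRMT5i replicate 1, -1.16 without PRMT5i replicate 2 and -0.97 without control replicate 2.

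The drugs were next compared with each other at 72 hours. They were given at different doses of different compounds, and the comparison is between these 2 treatments as given. In A375 all 10 genes were higher with PRMT5i than with CDK4/6i, in 9 of them without overlap (27.6% of all genes), and MASTL, AURKB, NEK2, PLK4 and AURKA were called (5 of 10, against 2.37% of all genes higher and 5.45% different). MASTL differed by 1.03 on the log2 scale (SE 0.20, adjusted p = 0.00746), AURKB by 0.86 (adjusted p = 0.0469) and AURKA by 0.65 (adjusted p = 0.0467). INCENP, at 108 and 129.7 CPM with PRMT5i and 107 and 119 CPM with CDK4/6i, overlapped, and the 95% interval of its difference ran from -0.30 to 0.53. All 5 calls were lost with any 1 of the 4 libraries left out. With only the 72-hour libraries in the fit, 8 passed without the replicate block (11.4% of all genes) and 9 with it, all but INCENP (18.4%).

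In CHL1 the same comparison called PLK4, MASTL, NEK2, TPX2 and AURKA higher with PRMT5i (5 of 10, against 28.4% of all genes higher and 57.8% different). PLK4 differed by 1.76 (SE 0.22, adjusted p = 4.45e-05), MASTL by 1.76 (adjusted p = 1.72e-05) and NEK2 by 1.60 (adjusted p = 3.52e-05). TPX2 (0.73) and AURKA (0.67) differed less. AURKB was lower with PRMT5i in both libraries and missed the threshold (log2 fold change -0.40, SE 0.18, adjusted p = 0.0794), and PLK1 stood at similar levels (-0.05, 95% interval -0.44 to 0.34). After the GC correction 9 of the 10 were higher with PRMT5i, all but BIRC5 (23.1% of all genes were), and AURKB (0.35), PLK1 (0.82) and INCENP (0.89) changed sign. TPX2 lost its call without CDK4/6i replicate 1 (0.68), and AURKB passed as lower without PRMT5i replicate 2 (-0.63, adjusted p = 0.00844).

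Whether the lines differed in response was tested in a fit of all 18 libraries. For CDK4/6i at 72 hours edgeR called 0 of the 10 genes and 0.642% of all genes. The fall was smaller in CHL1 for PLK4 by 1.07 (adjusted p = 0.118), for MASTL by 0.89 (adjusted p = 0.149), for NEK2 by 0.88 (adjusted p = 0.156) and for AURKB by 0.82 (adjusted p = 0.319), the 4 genes with an unadjusted p under 0.05. Of all 20705 genes, 2073 had such a p-value. DESeq2 called 2 of the 10 (1.08% of 15085 genes with an adjusted p were higher), and with the GC correction those 4 passed (1.73% of 13675 genes). For PRMT5i the lines differed in PLK4 by 2.10 (SE 0.29, adjusted p = 0.000149), in NEK2 by 1.75 (SE 0.26, adjusted p = 0.000193) and in MASTL by 1.64 (SE 0.26, adjusted p = 0.000254), the 3 that rose in CHL1 and lay lower in A375. Of all genes 40.9% differed in either direction and 18.8% this way. After the GC correction these 3 still differed (1.06, 1.10 and 0.93), and INCENP was added (0.63), against 11.9% of all genes. Without CHL1 PRMT5i replicate 2, AURKA (0.64) and TPX2 (0.84) passed as well. Line, medium and library set cannot be told apart in these differences.

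Across the 18 libraries the 10 genes varied together to differing degrees. Levels were taken as log2 CPM with a pseudocount of 1, as deviation from the mean of the line, and are described without a test because the points share treatments, depth and GC tilt. The 45 pairs of genes had a median Pearson r of 0.735 and none lay below 0. No GC correction was applied here, and a median over pairs of all genes was not computed for comparison. The closest pairs were PLK4 with MASTL (0.978), AURKA with its activator TPX2 (0.977) and AURKB with PLK1 (0.953), and the lowest was INCENP with MASTL (0.0117). AURKA (0.953) and TPX2 (0.947) followed the mean of the 10 most closely, and INCENP (0.635) and PLK4 (0.691) least. Within the passenger complex AURKB was thus closer to PLK1 than to its scaffold INCENP (0.788). Among the other genes that averaged 1 CPM or more, the 5 most like the mean of the group over the 18 libraries were KIF18B (r = 0.974), HIST1H1D (0.97), FAM83D (0.965), NCAPH (0.961) and KIAA0101 (0.96).

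**Figure D4:**
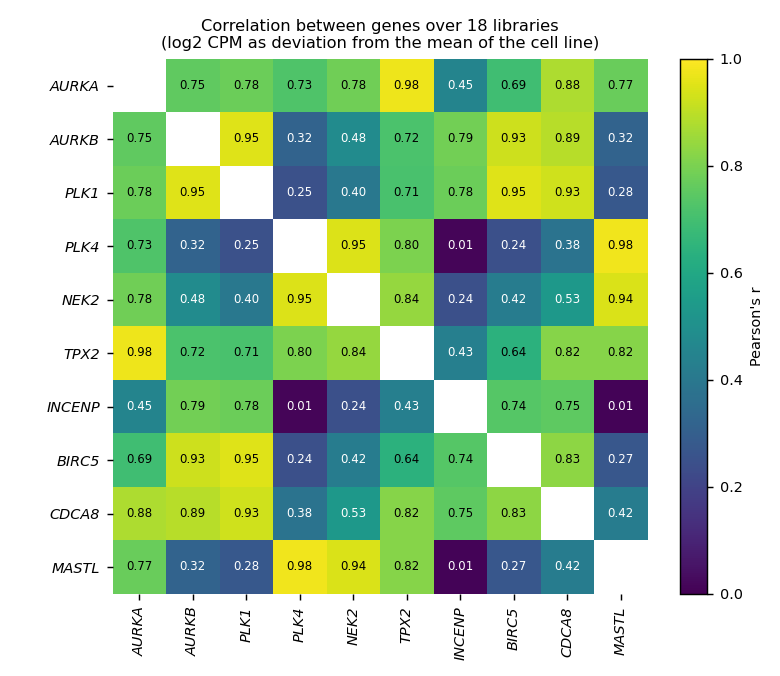
Pearson r between each pair of the 10 genes over 18 libraries, computed on log2 CPM (pseudocount 1) as deviation from the mean of the line, with genes on both axes and r as colour and number. The highest values are PLK4 with MASTL (0.978) and AURKA with TPX2 (0.977), and INCENP has the lowest, 0.0117 with MASTL.

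The wider machinery around the 10 genes was read from 7 lists of related genes, whose counts stand against 2.72% of all genes down in CHL1 and 7.11% in A375 at 72 hours of CDK4/6i. Genes of the central spindle, where the passenger complex moves late in mitosis, were down-regulated in 3 of 5 in CHL1 and in 5 of 5 in A375 at 72 hours of CDK4/6i (median log2 fold change -0.75 and -1.42). KIF20A, the kinesin that carries the complex there, had a log2 fold change of -1.31 in CHL1 and -1.61 in A375, KIF23 of -0.75 in CHL1 and PRC1, which bundles midzone microtubules, of -1.45 in A375. Of the 4 genes that recruit the passenger complex to centromeres, 2 were down-regulated in CHL1 and 4 in A375, with CDCA2 at -0.8 and BUB1 at -0.65 in CHL1 and SGOL1 at -1.3 and BUB1 at -1.24 in A375. The transcription factors of G2 and M phase fell in 3 of 5 and 5 of 5, with MYBL2 at -1.16 and FOXM1 at -0.98 in CHL1 and -2.05 and -1.46 in A375. Centriole duplication, the pathway of PLK4, gave unlike counts, with 1 of 6 genes down-regulated in CHL1 (CEP152, -0.65) and 6 of 6 in A375 (CEP152 -1.63, STIL -0.95). Whether these counts differ between the lines was not tested. Partners of Aurora A were down-regulated in 1 of 7 and 4 of 7, among them HMMR, a microtubule-binding protein of the spindle, at -0.8 and -1.05. Genes of the Greatwall pathway downstream of MASTL showed no DEG among 9 in either line at 72 hours of CDK4/6i. With the GC correction 1 was up-regulated and 1 down-regulated in A375. With PRMT5i in CHL1, 3 of the 9 were up-regulated and 2 down-regulated (26.4% and 27.6% of all genes). At 6 days of CDK4/6i in A375, 1 was up-regulated and 4 were down-regulated (21.3% of all genes down). Of 13 kinase paralogs none changed in CHL1 at 72 hours of CDK4/6i, while PLK2 (0.87) and NEK10 (0.85) were up-regulated in A375.

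At 6 days of CDK4/6i the same lists gave 3 of 5 central spindle genes down-regulated in CHL1 and 5 of 5 in A375, where ECT2, which starts the cleavage furrow, had a log2 fold change of -1.8. SGOL1 (-2.1) and SGOL2 (-1.92), which protect centromeric cohesion, led the recruitment list in A375. These values rest on the 6-day controls with the GC tilt, where 21.3% of all genes were down. After the GC correction SGOL1 was at -1.50, SGOL2 at -0.88 and ECT2 at -1.12, all down-regulated, and 4 of 5 central spindle, 4 of 4 recruitment and 4 of 6 centriole genes were (22.3% of all genes). With PRMT5i in A375, 2 of 4 recruitment genes (SGOL1 -0.95, CDCA2 -0.92), 2 of 6 centriole genes (CEP152 -0.97, STIL -0.72) and 1 of 5 central spindle genes (KIF23 -0.9) were down-regulated, against 1.74% of all genes. In CHL1, PRMT5i moved all 6 centriole genes up (SASS6 1.31, CEP135 1.24) and all 4 recruitment genes up (SGOL2 1.94, SGOL1 1.54), where 26.4% of all genes were up, and the central spindle list split, with ECT2 at 1.55 and KIF20A at -1.17. With the GC correction 1 of the 6 centriole genes and 2 of the 4 recruitment genes were still up-regulated, against 17.5% of all genes, and KIF20A stayed down-regulated at -1.05. Of the drug targets, CDK4 (-1.47) and PRMT5 (-0.96) were down-regulated and CDK6 (0.5) up-regulated in CHL1 with PRMT5i, and with the GC correction CDK4 (-1.01) and PRMT5 (-0.51) stayed so. At 72 hours of CDK4/6i 0 of the 3 were DEGs in either line by edgeR. At 6 days CDK6 was up-regulated in CHL1 (0.59), and in A375 CDK6 was down-regulated (-0.90) with CDK4 (0.67) and PRMT5 (0.66) up-regulated, of which CDK6 alone (-0.40) passed after the GC correction.

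**Figure D5:**
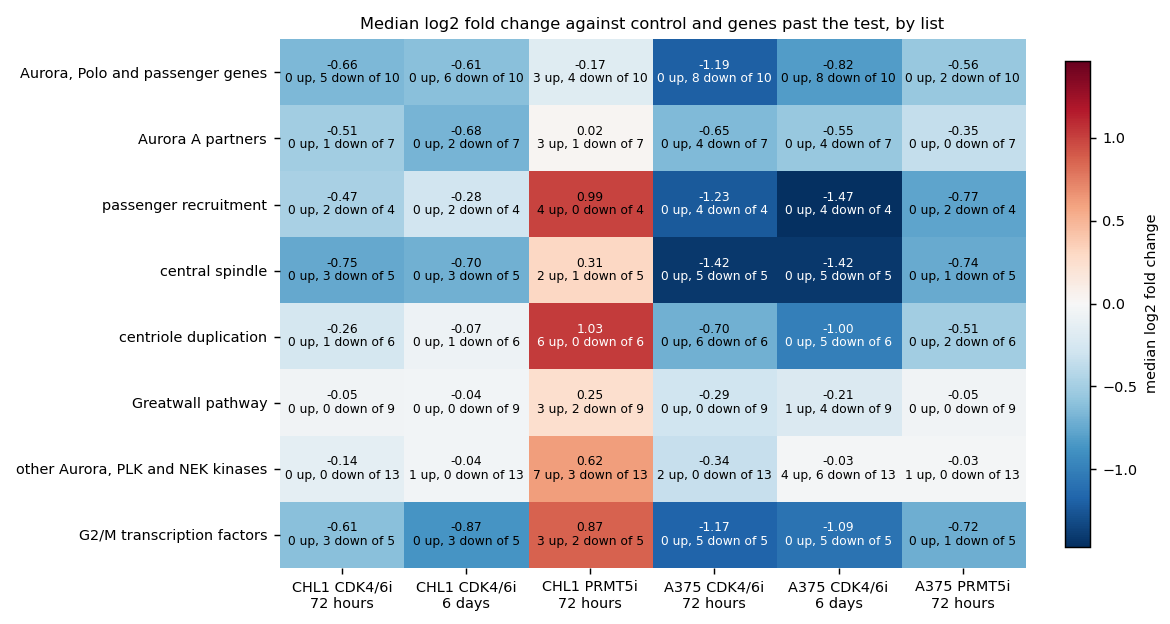
Median log2 fold change (colour and upper number) of each of the 7 lists of related genes and of the 10 genes, one row a list, in the 6 comparisons with control, one column each, with the numbers of up-regulated and down-regulated DEGs. Central spindle genes lie at -1.42 in A375 with CDK4/6i, and centriole genes lie at 1.03 in CHL1 with PRMT5i against -0.51 in A375.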

How the data were processed

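The authors aligned paired reads of poly-A RNA (TruSeq RNA) to GRCh37 with HISAT2 2.0.4, counted them on Ensembl genes with HTSeq and removed genes of low expression with edgeR. The submitters' processing notes also list FastQC 0.11.6, Picard 2.17.3 and SAMtools 1.18. The deposited table holds whole-number counts for 20705 genes in 18 libraries, whose totals differ, so the values were treated as counts that are not normalized, although the authors named the table as normalized. Strandedness is not given in the sources used here.

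Groups came from the labels. A fit was made for each line with all its libraries (8 for CHL1, 10 for A375), using edgeR 4.0.16 under R 4.3.3 (TMM, quasi-likelihood test, prior count 0.125), and differences between lines were fitted on all 18. Adjusted p-values (Benjamini-Hochberg) cover all 20705 genes, and the threshold was 0.05. Alternatives were DESeq2 1.42.0, only the compared groups, scaling by median of ratios, leaving out genes that did not reach 1 CPM in 2 libraries, a replicate block, a GC correction (loess, span 0.4, 13675 genes averaging 1 CPM or more that have a GC value from GENCODE on GRCh37), and leaving out each library. The 13675 genes were also fitted without the correction. Fits without the CHL1 PRMT5i libraries and with only the A375 libraries of 72 hours were chosen after seeing the data. The edgeR script was tested on simulated data.

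The 10 genes and the lists were chosen with earlier results of these data known. Named from the lists are at most the 2 largest changes among DEGs of a list that average 1 CPM or more in the line, beside CDK4, CDK6 and PRMT5, and the 5 genes whose level was most like the mean of the 10. Listed genes without an entry in the table were not analysed here.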

Additional observations from a re-analysis of the deposited data

Results flagged for a closer look

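In 3 of the 10 genes the response to PRMT5i differed between the cell lines by edgeR's test of the difference itself, on all 18 libraries and adjusted over all genes. The log2 fold change was higher in CHL1 than in A375 by 2.10 for PLK4 (adjusted p = 0.000149), by 1.75 for NEK2 (adjusted p = 0.000193) and by 1.64 for MASTL (adjusted p = 0.000254). Of all genes 40.9% differed by this test and 18.8% in this direction, so 3 of 10 lies below the share in either direction. In each of the 3 both PRMT5i libraries lay above both controls in CHL1 (36.2% of all genes did) and below both controls in A375 (26.2%). With the GC correction the differences were 1.06, 1.10 and 0.93, and all 3 passed. These 3 are the genes of lowest GC content among the 10 (38.1% to 41.8%), the CHL1 PRMT5i libraries carry the GC tilt, and its part in the remaining difference was not tested.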

How the results depend on the processing

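Of 1710 values of the 10 genes under the alternatives, 10 changed sign with a value past the threshold, all with the GC correction. INCENP in CHL1 with PRMT5i against control was 0.16 with the correction and 0.17 with the correction and a replicate block. In PRMT5i against CDK4/6i in CHL1, AURKB was 0.35, PLK1 0.82 and INCENP 0.89 with the correction, and 0.36, 0.83 and 0.89 with the block added. The difference between lines for INCENP with PRMT5i was 0.63 and 0.62. Median-of-ratios scaling moved the median of all genes by at most 0.097 on the log2 scale.

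DEGs among all genes moved between settings too, as from 1032 to 4202 in CHL1 at 72 hours of CDK4/6i with only the compared groups. In A375 with PRMT5i they moved from 541 to 6113 with the block. Moves of the 10 genes are listed below where they exceeded 1.5-fold or began at 0. Smaller moves are left out, as from 6 to 9 in CHL1 at 6 days with the correction. In A375 at 6 days, 8 became 6 with only the compared groups (5862 DEGs among all genes) and 10 with the correction (5997). The number of the 10 genes called moved as follows. For CDK4/6i in CHL1 at 72 hours (5 genes), it was 8 with DESeq2 (1671 DEGs) and 10 with only the compared groups (4202 DEGs). It was 10 with the GC correction, without (2085 DEGs) or with the block (2259 DEGs). Without the PRMT5i libraries it was 9 (2098 DEGs). At 6 days (6 genes), it was 10 with the correction and the block (4454 DEGs). For PRMT5i in CHL1 (7 genes), it was 2 with the correction, without (5327 DEGs) or with the block (5488 DEGs). For PRMT5i in A375 (2 genes), it was 6 with only the compared groups (1861 DEGs) and 9 with the block (6113 DEGs). It was 9 with block and correction (5451 DEGs), 7 with the correction (1431 DEGs) and 9 with only 72-hour libraries (3265 DEGs). For PRMT5i against CDK4/6i (5 genes in each line), it was 9 in CHL1 with the correction, without (6815 DEGs) or with the block (6934). In A375 it was 8 with only the compared groups (4517 DEGs) and 8 with only 72-hour libraries (4571 DEGs). It was 9 there with the block (7167 DEGs) and 9 with block and correction (6224 DEGs). The difference between lines for CDK4/6i (0 genes) gave 2 with DESeq2 (368 DEGs) and 4 with only the compared groups (1797 DEGs). It gave 3 with the block (500 DEGs), and 4 with the correction, without (486 DEGs) or with the block (1123 DEGs). For PRMT5i (3 genes) it gave 6 with the block, alone (9837 DEGs) or with the correction (5383 DEGs). The controls of the lines (3 genes) gave 7 with only the compared groups (13959 DEGs) and 6 with block and correction (9584 DEGs). These 7 and 6 of 10 lie near or below the share of all genes in the same fits. The cause of these moves was not tested.

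With a library left out, the number called ranged from 0 to 0 for CDK4/6i in CHL1 at 72 hours, 1 to 6 at 6 days, 5 to 7 for PRMT5i in CHL1, 6 to 8 for CDK4/6i in A375 at 72 hours, 5 to 9 at 6 days, 0 to 1 for PRMT5i in A375, 4 to 6 for PRMT5i against CDK4/6i in CHL1 and 0 to 0 in A375. It ranged from 0 to 0 for the times in CHL1, 0 to 5 for those in A375, 0 to 0 and 3 to 5 for the differences between lines with CDK4/6i and PRMT5i, and was 2 for the controls. DEGs among all genes ranged over these settings, library removals aside, from 796 to 4202 (CHL1, 72 hours, 1032 in the report's fit), 2890 to 4964 (6 days, 3443), 5327 to 11233 (PRMT5i, 11176), 2486 to 8752 (A375, 72 hours, 2761), 5862 to 8730 (6 days, 8928) and 362 to 6113 (PRMT5i, 541). They ranged from 6815 to 11964 for PRMT5i against CDK4/6i in CHL1 (11958), 1034 to 7167 in A375 (1129), 0 to 63 for the times in CHL1 (3), 102 to 1146 in A375 (224), 132 to 1797 and 4176 to 9837 for the lines with CDK4/6i (133) and PRMT5i (8466), and 8601 to 13959 for the controls (12205). Some of these fits tested only the 13675 genes with a GC value, with or without the correction. Their numbers cannot be set directly beside those over 20705 genes.

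The correlation of replicate differences between groups ran from -0.377 to 0.457 in CHL1, where equal numbers share only a number, and from 0.229 to 0.527 in A375 at 72 hours, where the block stands beside the results. A block could not be fitted for A375 at 6 days, where the labels give no numbers. With 2 libraries a group, calls near the threshold rest on single libraries, and the counts of BIRC5, 59 to 250 a library, limit what its values can show.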
